A study of Homo sapiens with 6 samples.

Results

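The histone genes measured in MDA-MB-231 cells, an established human triple-negative breast cancer line, were compared between cells with and without knockdown of DAXX. Members were the transcript clusters of the array that the probe annotation paired with exactly 1 symbol of a histone H1, H2A, H2B, H3 or H4 gene, with pseudogenes and an antisense transcript left out. Where a gene had more than 1 cluster, the brightest over all arrays was kept. This gave 43 histone genes of 22465 genes tested, namely 9 of H1, 13 of H2A, 17 of H2B, 2 of H3 and 2 of H4. By their symbols 33 were replication-dependent and 10 were variant or replacement genes. A list of genes mainly known from germ cells held 8 of the 43.

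The series holds 6 samples from 1 line, with 1 array each. In 3 of them (shControl) the cells carried a scrambled control hairpin, and in the other 3 (shDAXX) a hairpin RNA against DAXX. Lentiviral particles delivered the hairpins, and both kinds of cells were stable pools selected with 2 µg/ml puromycin, so a single hairpin stands for the knockdown. Cells were kept for 24 hours after seeding, per the labels in complete medium, and 200 ng of total RNA was labelled for an Affymetrix human transcriptome array. Values are RMA signals on the log2 scale, and a fold change is the shDAXX mean minus the shControl mean. The replicates are described as biological by the submitters, so the p-values measure the spread between cultures of stably selected cells.

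Replication-dependent histone genes lie in clusters on chromosomes 6 and 1 and are transcribed in S phase, when new DNA has to be packed. Their mRNAs end in a stem loop instead of a poly(A) tail, and the stem-loop binding protein SLBP guides their processing. Variant genes such as H2AX, H2AZ1 and the H3.3 genes are expressed outside S phase too, and their products are put into chromatin by dedicated chaperones. DAXX, together with ATRX, places H3.3 at heterochromatin and telomeres. The sources used here do not say how the labelling primed RNA without a poly(A) tail, and the level of a replication-dependent gene on the array depends on it.

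The promoters of 4 members with lower means in shDAXX than in shControl, chosen after their values were seen, hold matches to elements that histone genes carry. Each line gives the 250 bases before the transcription start in the RefSeq annotation of GRCh38.p14, 5′ to 3′ on the strand of the gene, with matches on either strand in capitals. Capitals mark the CCAAT box, the TATA box letters TATAAA, the octamer ATTTGCAT, the E2F-type sites TTTCCCGC, TTTGGCGC, TTTCGCGC and TTTGCCGC, and the H1 box AAACACA. Matches were taken at any position, so a TATAAA match far from the start need not be the TATA box of the gene. All 4 lie upstream of their gene on chromosome 6, H2BC17 at chr6:27893175-27893424 on the plus strand, H2BC11 at chr6:27132796-27133045 on the minus strand, H2BC5 at chr6:26157871-26158120 on the plus strand and H1-2 at chr6:26056471-26056720 on the minus strand.
H2BC17: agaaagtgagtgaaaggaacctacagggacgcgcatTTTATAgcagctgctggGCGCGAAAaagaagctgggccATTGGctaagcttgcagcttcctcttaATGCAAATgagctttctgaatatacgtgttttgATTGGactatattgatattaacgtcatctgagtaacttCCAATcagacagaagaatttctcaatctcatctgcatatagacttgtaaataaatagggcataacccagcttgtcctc
H2BC11: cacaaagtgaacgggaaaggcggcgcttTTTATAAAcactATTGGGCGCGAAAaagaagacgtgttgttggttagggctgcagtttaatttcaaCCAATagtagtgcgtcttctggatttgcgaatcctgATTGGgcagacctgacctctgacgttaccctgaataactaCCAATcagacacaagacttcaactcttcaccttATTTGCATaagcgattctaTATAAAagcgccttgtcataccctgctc
H2BC5: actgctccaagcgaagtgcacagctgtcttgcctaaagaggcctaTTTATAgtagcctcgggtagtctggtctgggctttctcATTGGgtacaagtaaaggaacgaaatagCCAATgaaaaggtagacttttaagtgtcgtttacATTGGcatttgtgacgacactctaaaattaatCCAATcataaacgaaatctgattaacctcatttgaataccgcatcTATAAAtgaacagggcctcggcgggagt
H1-2: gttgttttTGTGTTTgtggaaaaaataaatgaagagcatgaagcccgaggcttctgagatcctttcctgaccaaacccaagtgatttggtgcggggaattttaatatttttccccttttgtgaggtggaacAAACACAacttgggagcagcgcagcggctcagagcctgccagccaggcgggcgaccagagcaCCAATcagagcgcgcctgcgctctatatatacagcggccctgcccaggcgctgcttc
The H2BC17 window held 1 octamer and 3 CCAAT boxes, the H2BC11 window 1 octamer and 4 CCAAT boxes, and the H2BC5 window 4 CCAAT boxes with no octamer. The H1-2 window held 2 H1 boxes and 1 CCAAT box.

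RefSeq promoters, 300 bases each from 250 before to 50 after the start, were matched for 40 of the 43 members and not for HIST1H2AH, H4C3 and H3-5. Matches were counted on either strand and at any position in the window. CCAAT was found in 38 of the 40 (95.0%) against 35.7% of 27305 promoters in all, and TATAAA in 25 (62.5%) against 12.0%. The octamer, the site of the OCT1 factor in H2B promoters, was found in 11 of 17 H2B and 6 of 12 H2A promoters, in none of the 9 H1 promoters and in none of the 9 variant promoters, against 1.8% of all promoters. The E2F-type sites were found in 10 members (25.0%, against 3.33%), all of them replication-dependent. The H1 box was found in 7 of 9 H1 promoters, and in 5.76% of all. GGTCC, a core of H4 promoter elements, was found in 11 members (27.5%) and in 46.1% of all promoters. Members with the octamer had a median fold change of -0.17 and those without one -0.03 on the log2 scale. In the same order the medians were -0.17 and 0.01 for TATAAA and -0.12 and -0.14 for the CCAAT box. For the E2F-type sites they were -0.03 and -0.16, for the H1 box 0.02 and -0.16, and for GGTCC -0.09 and -0.14. The direction thus differed between motifs. A match is a description of the sequence, not evidence that a factor binds there.

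DAXX itself, which the hairpin targets, was measured at 7.49, 7.48 and 7.43 in shControl and at 6.69, 6.67 and 6.61 in shDAXX. The groups did not overlap, and the difference was -0.81 (SE 0.060, limma, adjusted p = 0.00049). Correlations of arrays ran from 0.996 to 0.997 inside a group and from 0.991 to 0.992 across the groups, and component 1 took up 53.9% of the variance. VIM, EGFR, KRT18 and CD44, which MDA-MB-231 cells express, had means of 12.75 to 16.01 in shControl, while the hormone receptor genes ESR1 and PGR, at 4.53 and 4.04, lay under the median signal of 5.72. Of all genes, limma called 9.90% at an adjusted p under 0.05, 5.60% lower and 4.30% higher in shDAXX. Lower genes were 56.5% of the calls as deposited and 45.6% after the array medians were set equal.

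Most histone genes with a signal above the median of the table had lower means in shDAXX, but nearly all of these differences missed the threshold over all genes. Of the 43 members, 28 had a fold change below 0 (65.1%), against 48.8% of all genes. The median over the members was -0.14 on the log2 scale, against 0.0067 over all genes. Over the 33 replication-dependent genes it was -0.23 as deposited and -0.12 after quantile normalization. Only H2BC17, an H2B gene, was called (limma, adjusted p = 0.023), and no member was called higher. At an unadjusted p under 0.05, 11 of the 43 members were lower and 2 higher, beside 12.6% and 11.0% of all genes. By this measure the lower share was above that of all genes and the higher share under it. The groups did not overlap for 7 members that were lower and 2 that were higher, beside 14.7% and 14.0% of all genes. The share of non-overlapping lower members was thus near that of all genes. Which genes were called changed with the array left out. Without shDAXX 2 the calls were H1-2, H2BC5, H2BC6 and HIST1H2AH, without shControl 3 they were H2AC25, H2BC11 and H2BC17, and without shDAXX 3 only H1-10 was called. The replicate spread of the members was wider, with a median SE of 0.13 against 0.087 over all genes.

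**Figure D1:**
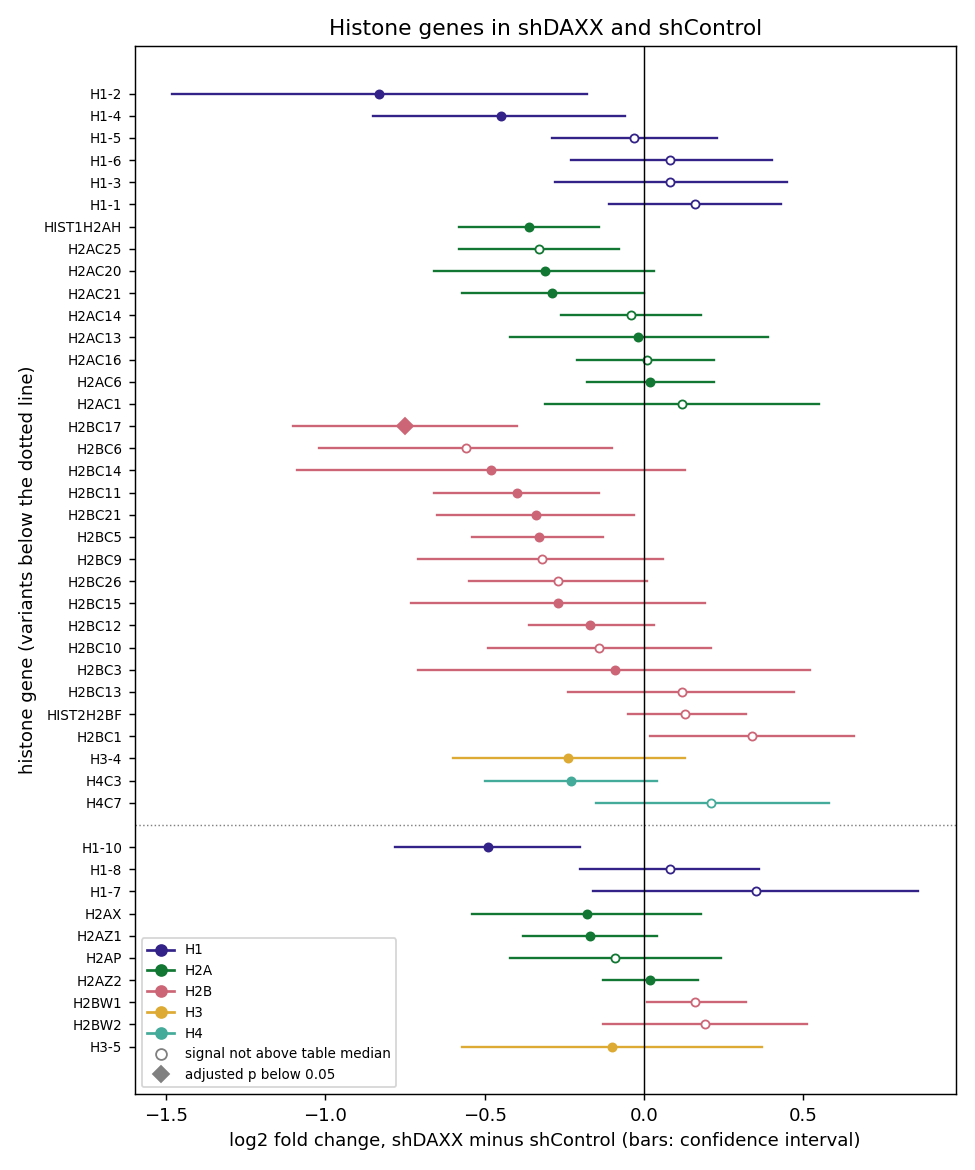
Log2 fold change of each of the 43 histone genes, shDAXX minus shControl (x axis), with the 95% interval from limma as a bar, coloured by histone type and with the 10 variant genes under the dotted line. Filled points are genes above the median signal, open points the others, and the diamond marks H2BC17, the only gene with an adjusted p under 0.05. Most filled points lie left of 0, while open points lie on both sides.

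The H2B genes, whose products pair with H2A in the outer dimers of the nucleosome, made up the widest group. Of 15 replication-dependent H2B genes 12 were below 0, with a median of -0.27, and 1 was called. Of all genes 48.8% were below 0 and 5.60% were called lower, so 1 call among 15 is near the share of all genes. H2BC17 was at 11.21, 11.09 and 10.73 in shControl and at 10.44, 10.28 and 10.07 in shDAXX. Every shDAXX array lay under every shControl array, and the difference of -0.75 (SE 0.15, 95% interval -1.10 to -0.40) corresponded to a 1.68-fold lower signal. The call was lost when any of 4 of the 6 arrays was left out. Such fits also called fewer genes in all, 1297 to 1424 against 2224 with every array. With shControl 1, shControl 2, shDAXX 2 or shDAXX 3 left out, its limma adjusted p was 0.071, 0.081, 0.067 and 0.073, at fold changes of -0.65 to -0.76. Without shControl 3 or shDAXX 1 it was still called, at -0.89 (limma, adjusted p = 0.015) and -0.84 (adjusted p = 0.038).

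H2BC11 followed with 12.24, 12.22 and 11.95 in shControl against 11.74, 11.88 and 11.59 in shDAXX. H2BC5 had 8.05, 8.09 and 8.05 against 7.65, 7.90 and 7.64. Neither gene overlapped between the groups, and neither passed the threshold over all genes, with fold changes of -0.40 (SE 0.11, limma, adjusted p = 0.071) and -0.33 (SE 0.086, adjusted p = 0.058). Both were called when only genes above the median signal were tested (limma, adjusted p = 0.026 and 0.020) and with trend and robust moderation (0.044 and 0.039). H2BC5 was also called after quantile normalization (0.047). Another, dimmer cluster of H2BC11 was at -0.16 (SE 0.11) with overlap. Averaging the clusters of H2BC11 gave -0.28 (limma, adjusted p = 0.15). H2BC12 had 14.04, 14.21 and 14.04 against 13.92, 14.03 and 13.84, a small gap of -0.17 without overlap, which was -0.04 after quantile normalization. H2BC21, at -0.34, H2BC14, at -0.48, H2BC15, at -0.27, and H2BC3, at -0.09, overlapped, each because shDAXX 2 or shControl 3 reached into the other group. H2BC14 shows this plainly, with 9.28, 9.25 and 8.69 in shControl and 8.33, 9.13 and 8.32 in shDAXX. The other replication-dependent H2B genes were dim, with means of 3.68 to 5.68 over all arrays. Of these H2BC6 was at -0.56 (SE 0.19), H2BC9 at -0.32, H2BC26 at -0.27 and H2BC10 at -0.14, while HIST2H2BF was at 0.13 and H2BC13 at 0.12. The testis gene H2BC1, at 0.34, is described with the germ cell members.

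Linker histones bind the DNA that enters and leaves the nucleosome. H1-2, a main somatic linker histone, had the widest gap of all members at -0.83 (SE 0.28). It was at 9.75, 9.72 and 9.17 in shControl and at 8.39, 9.32 and 8.45 in shDAXX. Only shDAXX 2 lay inside the shControl range, and the adjusted p was 0.12 in limma. Without shDAXX 2 the fold change was -1.13 and the adjusted p 0.025, so that array decided the call. H1-4, another somatic linker histone, was at 15.47, 15.88 and 15.28 against 15.09, 15.28 and 14.90, a difference of -0.45 (SE 0.17) in which shControl 3 and shDAXX 2 met at the same value. After quantile normalization it was -0.28. H1-5, H1-3 and H1-1 were dim, with means of 3.86, 4.26 and 4.73, and their differences were -0.03 (SE 0.11), 0.08 (SE 0.15) and 0.16 (SE 0.11), none of them called.

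Of the 9 replication-dependent H2A genes 6 were below 0, with a median of -0.04, and none was called. HIST1H2AH, an older symbol of H2AC12, was at 7.88, 7.83 and 7.70 in shControl and at 7.32, 7.60 and 7.42 in shDAXX. Its groups did not overlap, at -0.36 (SE 0.093, limma, adjusted p = 0.060). It was called when only genes above the median signal were tested (limma, adjusted p = 0.021) and with trend and robust moderation (0.042). Over every transcript cluster it was not called (0.19). H2AC25, a dim gene, had 5.48, 5.29 and 5.07 against 4.98, 4.94 and 4.94, also without overlap, at -0.33. H2AC20, at 16.20, 16.42 and 16.07 against 16.01, 16.11 and 15.63, and H2AC21 differed by -0.31 and -0.29 and overlapped. After quantile normalization H2AC20 was at -0.12. H2AC13 and H2AC6 had differences of -0.02 (SE 0.17) and 0.02 (SE 0.084) at means of 7.42 and 7.35. H2AC14 and H2AC16 were dim and near 0, at -0.04 and 0.01, and the germ cell gene H2AC1 was at 0.12.

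Few H3 and H4 genes, which form the tetramer at the core of the nucleosome, had a cluster of their own. H4C3, an H4 gene, had 15.54, 15.60 and 15.22 in shControl and 15.18, 15.33 and 15.15 in shDAXX. The groups overlapped through shControl 3, at -0.23 (SE 0.11), and after quantile normalization the difference was 0.02, so its direction depended on the scaling. H4C7, which encodes a divergent H4 protein, was dim and at 0.21 (SE 0.15). H3-4, a testis H3 gene, was at -0.24 (SE 0.15), with 6.59, 6.42 and 6.14 against 6.30, 6.26 and 5.88.

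**Figure D2:**
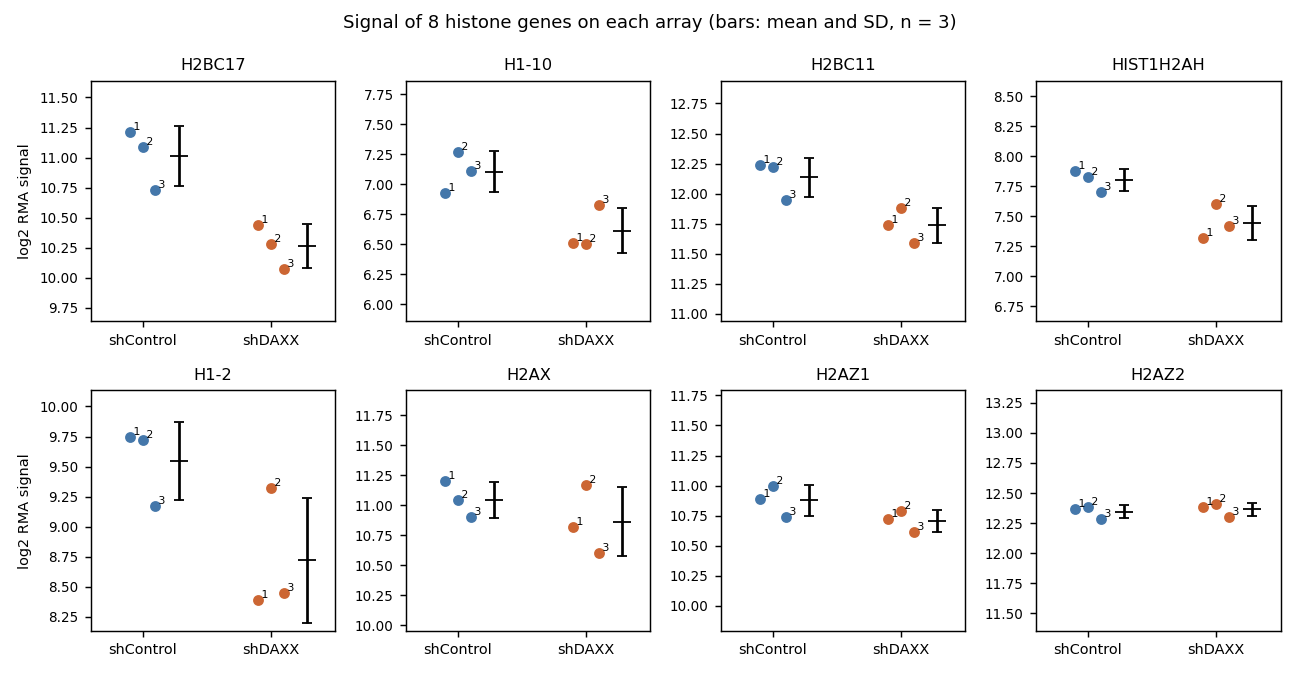
Log2 RMA signal (y axis) of 8 histone genes on each of the 3 shControl and 3 shDAXX arrays, with points numbered by replicate and black bars for the mean and SD (n = 3). Every panel spans the same range of log2 units, so gaps can be compared by eye between panels while levels cannot. H2BC17, H2BC11, HIST1H2AH and H1-10 show no overlap, H1-2 overlaps through shDAXX 2, and H2AZ2 is level.

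Of the 10 variant genes 5 were below 0 and none was called, with a median of -0.04 as deposited and 0.01 after quantile normalization. The 5 variants above the median signal had 4 below 0 and a median of -0.17. Whether variant and replication-dependent genes differed was not tested. H1-10, the replacement linker histone H1.X, was at 6.93, 7.27 and 7.11 in shControl and at 6.51, 6.50 and 6.83 in shDAXX. It was the only lower variant without overlap, at -0.49 (SE 0.12), and its limma adjusted p was 0.055. It was called among genes above the median signal (limma, adjusted p = 0.019) and with trend and robust moderation (0.041). Over every transcript cluster it was not called (0.16). Among its 40 neighbouring genes 4 were called lower, with a median of -0.04.

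H2AX, which is phosphorylated around DNA breaks, was at 11.20, 11.04 and 10.90 against 10.82, 11.17 and 10.60, with shDAXX 2 inside the shControl range and a difference of -0.18 (SE 0.15). The H2A.Z isoforms, which mark promoters and enhancers, were measured on separate clusters. H2AZ1 was at 10.89, 11.00 and 10.74 against 10.72, 10.79 and 10.61, or -0.17 (SE 0.089). H2AZ2 was at 12.37, 12.38 and 12.28 against 12.38, 12.41 and 12.30, a difference of 0.02 (SE 0.065) with a 95% interval of -0.13 to 0.17. The difference between these genes was not tested. H2AP, a histone fold gene on the X chromosome, was dim and at -0.09 (SE 0.14). H3-5, an H3.3-like gene on chromosome 12, was at 6.39, 6.56 and 5.83 against 5.97, 6.38 and 6.13, or -0.10 (SE 0.20). It was the only H3.3 type gene with its own row, and 15 of its 40 neighbours were called lower.

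All but H3-4 of the 8 germ cell genes had signals under the median of the table. Unlike H3-4, at -0.24, the testis and oocyte genes H1-6, H1-7, H1-8, H2AC1, H2BC1, H2BW1 and H2BW2 were all above 0 in their fold change. The direction depends on which genes are listed, and H3-5 and H2AP, at -0.10 and -0.09, were not on the list. The median over the 8 was 0.14 and none was called. Of all genes below the median signal, 6378 of 11233 were above 0 too. H2BC1 was at 3.55, 3.58 and 3.40 in shControl and at 4.12, 3.60 and 3.83 in shDAXX, and H2BW1 at 3.96, 3.82 and 3.88 against 4.04, 4.08 and 4.03. Both had no overlap, at 0.34 (SE 0.13) and 0.16 (SE 0.064), each with a limma adjusted p of 0.18. Of all genes, 14.0% were higher without overlap. H1-7 was at 0.35 with an SE of 0.22. Signals this low are not shown to come from a transcript, and RMA narrows differences near background.

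The side of 0 went with the signal. This split of the members at the table's median signal was made after their values were seen. Above the median, 20 of 22 histone genes were below 0, with a median of -0.28, and H2AC6 and H2AZ2, both at 0.02, were the exceptions. Of all genes above the median 54.5% were below 0, with a median of -0.02. Below the median signal, 8 of 21 histone genes were below 0, with a median of 0.08, and 43.2% of all such genes were, with a median of 0.02. Of the 17 brighter replication-dependent genes 16 were below 0. Their median of -0.31 was -0.28 after quantile normalization and also after equal array medians, and it ran from -0.42 to -0.25 when single arrays were left out. Histone genes are alike in sequence and regulated together, so they are not independent measurements of a common shift.

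Array by array, the brighter replication-dependent genes did not separate the groups. For each array the median deviation of these 17 genes from their own means over 6 arrays was taken. It was 0.253, 0.270 and -0.043 in shControl and -0.197, 0.003 and -0.265 in shDAXX. The shControl 3 array thus lay under shDAXX 2, and the groups overlapped. The 5 brighter variants had 0.098, 0.208 and -0.055 against -0.135, 0.057 and -0.080, with the same array out of place. Over all genes the deviations were -0.008 to 0.010.

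A list of 24 measured genes of S phase and proliferation, of 26 listed, had 0.000, 0.066 and -0.093 in shControl and -0.002, 0.059 and -0.055 in shDAXX. On these genes too shControl 3 and shDAXX 3 were the lowest and replicate 2 the highest array of its group. Its part in the histone values was not tested. In a bulk culture, fewer cells in S phase and less histone RNA per cell cannot be told apart. The list itself had a median of 0.02. Its higher genes were MCM4, a subunit of the replicative helicase (0.46), RRM2, a subunit of ribonucleotide reductase (0.41), and CCNE2, the cyclin E2 gene (0.51). Its lower genes were TOP2A, the topoisomerase of mitotic chromosomes (-0.55), and CDC6, which loads the helicase (-0.41). These 5 were the only ones of the 24 called, beside 9.90% of all genes. In the limma fit over every transcript cluster RRM2, CCNE2 and CDC6 were not called (adjusted p = 0.063, 0.11 and 0.075). CCNE2 lost its call without shControl 2, shControl 3, shDAXX 1, shDAXX 2 or shDAXX 3, at 0.42 to 0.55.

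**Figure D3:**
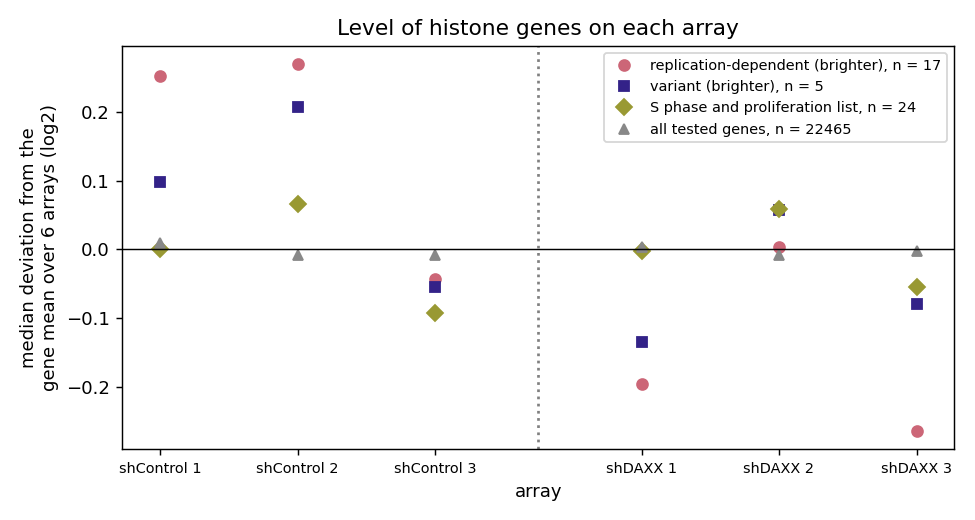
Median deviation of each gene set from the mean of its genes over the 6 arrays, in log2 units (y axis), for each array (x axis), for 17 brighter replication-dependent genes, 5 brighter variants, 24 S phase and proliferation genes and all 22465 genes. The shControl 3 point of the replication-dependent genes, at -0.043, lies under the shDAXX 2 point, at 0.003, while all genes stay within 0.010 of 0.

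Most H3 and H4 genes are so alike in their coding sequence that a transcript cluster was paired with several of them, and these clusters were not members. They were read from a limma fit over every transcript cluster, in which 2.92% of the 1543 clusters with several symbols were called. Of 43 such histone clusters 38 were below 0 (88.4%), with a median of -0.24, against 54.7% and -0.02 over the 1543. The groups overlapped by array here too. Over the 25 of these histone clusters above the median signal the median deviation was 0.213, 0.300 and -0.088 in shControl and -0.110, 0.052 and -0.285 in shDAXX. Called were 2, both lower. A cluster paired with H2AC4 and H2AC8 fell from 9.62, 9.92 and 9.57 to 8.90, 9.11 and 8.82, or by 0.76 on the log2 scale (SE 0.13, limma, adjusted p = 0.043). A cluster paired with H2AJ and H2AC20 was at 7.06, 6.99 and 7.00 in shControl and at 6.20, 6.41 and 6.39 in shDAXX, or -0.68 (SE 0.095, adjusted p = 0.021). In both clusters every shDAXX array lay under every shControl array.

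H2AJ, the gene of the replacement histone H2A.J, lies on chromosome 12 among genes of which many were lower. Of the 40 genes nearest to it 20 were called lower and none higher, and their median fold change was -0.45. The cluster cannot be given to H2AJ or H2AC20 alone, although H2AC20 on its own cluster differed by -0.31. By contrast the 40 neighbours of H2BC17 on chromosome 6 had a median of -0.02, with 2 called lower.

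The H4 clusters, 13 in all, had a median of -0.25 and the 12 H3 clusters a median of -0.26, with none called in either. The cluster named first for H3C2 was at 13.02, 13.28 and 13.05 against 12.95, 13.24 and 12.34, a difference of -0.27 (SE 0.23) with shDAXX 3 far under the other arrays. The H3.3 genes, whose product DAXX carries, are H3-3A and H3-3B, and each was paired with a cluster that also names the other. The cluster named first for H3-3A was at 11.50, 11.54 and 11.29 in shControl and at 11.43, 11.66 and 11.57 in shDAXX, or 0.11 (SE 0.11). That named first for H3-3B was at 14.32, 14.24 and 13.79 against 13.51, 14.04 and 13.67, or -0.38 (SE 0.19). Both overlapped, neither was called, and their limma adjusted p-values were 0.73 and 0.44.

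**Figure D4:**
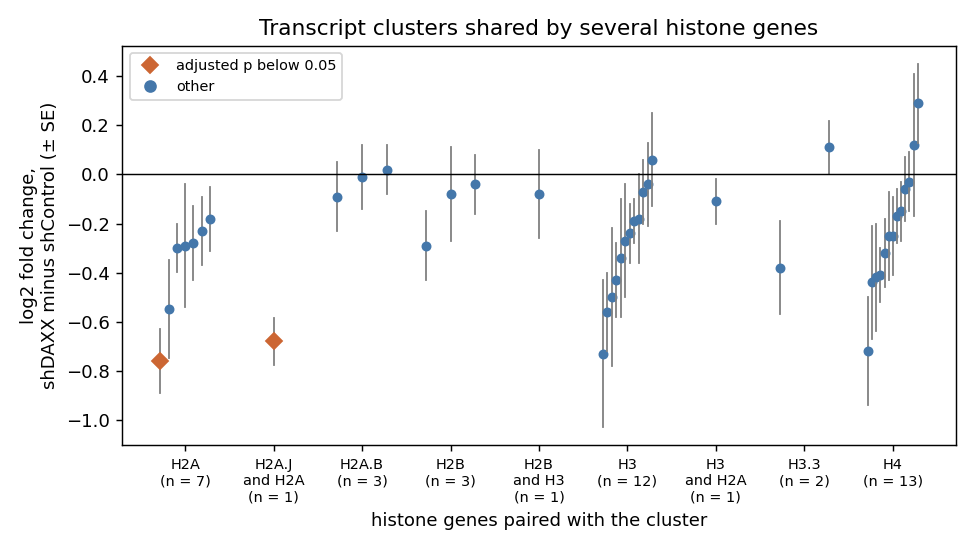
Log2 fold change, shDAXX minus shControl, with its SE as a bar (y axis), of 43 transcript clusters paired with several histone genes, by the kind of histone named (x axis). The diamonds are the 2 called clusters, H2AC4 with H2AC8 and H2AJ with H2AC20, at -0.76 and -0.68, and 38 of the 43 lie below 0.

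H2A and H2B genes often share a promoter region and are transcribed away from each other. Both partners were measured in 5 such pairs, whose starts lay 215 to 245 bases apart in GRCh38.p14. In H2BC21 and H2AC20 the values were -0.34 (SE 0.13) and -0.31 (SE 0.15), or -0.30 and -0.12 after quantile normalization. In H2AC25 and H2BC26 they were -0.33 and -0.27. In H2AC14 and H2BC14 the values were -0.04 (SE 0.094) and -0.48 (SE 0.26). The pair H2AC1 and H2BC1 was at 0.12 and 0.34, and H2BC13 and H2AC13 at 0.12 and -0.02. No pair had a member that was called. Along the chromosomes, the 26 members of the HIST1 region on chromosome 6 had a median of -0.12, the 4 of the HIST2 region -0.30 and the 3 of the HIST3 region -0.27.

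The genes that make, process and carry histones were read as lists, beside the 9.90% of all genes called in either direction. Of the 25 listed genes of histone gene transcription and mRNA processing 24 were measured, with a median of 0.08, and 2 were called, both higher. ERI1, an exonuclease that trims the stem loop, was at 7.27, 7.30 and 7.26 in shControl and at 7.70, 7.72 and 7.66 in shDAXX (0.42, SE 0.058, limma, adjusted p = 0.0058). SNRPF, a protein shared by the U7 and spliceosomal particles, was at 0.47 (SE 0.073, adjusted p = 0.0094). In the fit over every transcript cluster neither was called, with limma adjusted p-values of 0.058 and 0.062. SLBP was at 10.25, 10.06 and 10.22 against 10.12, 10.22 and 10.38, or 0.06 (SE 0.092), and NPAT, the coactivator of histone genes in S phase, was at 11.36, 11.41 and 11.37 against 11.27, 11.21 and 11.22, or -0.15 (SE 0.058, adjusted p = 0.19). These last genes were named for their role after their values were seen.

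Among chaperones that work with replication, 16 of 17 were measured, with a median of 0.11. NASP, which holds reserves of H3 and H4, was the only one of the 16 called, beside 9.90% of all genes. It rose from 10.92, 10.90 and 10.84 to 11.29, 11.37 and 11.26 (0.42, SE 0.063, limma, adjusted p = 0.0083), and had an adjusted p of 0.067 in the fit over every transcript cluster. Of the genes that place H3.3 and the centromeric H3, 10 of 12 were measured, with a median of -0.20. DAXX, the target of the hairpin, is among the 10, so its fall enters the median and the 2 calls. The other call was HJURP, the chaperone of CENP-A, which was lower. It was at 11.00, 11.21 and 10.94 against 10.52, 10.71 and 10.40 (-0.51, SE 0.11, limma, adjusted p = 0.031). With shControl 1, shControl 2, shControl 3, shDAXX 1 or shDAXX 3 left out, HJURP was no longer called, at -0.43 to -0.56, and over every transcript cluster its limma adjusted p was 0.11.

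For the exchange of H2A.Z 11 of 11 genes were measured, with a median of -0.04 and none called. The smallest p-values there were those of RUVBL1 (-0.17, SE 0.068) and RUVBL2 (-0.22, SE 0.10), the paired ATPases of the remodelling complexes, with limma adjusted p-values of 0.18 and 0.25. Variants whose symbols fall outside the rule for members were 3, all within -0.07 to -0.01. CENPA, the centromeric H3, was at 9.68, 9.69 and 9.43 against 9.41, 9.58 and 9.59 (-0.07, SE 0.096), and MACROH2A2 was at -0.02 (SE 0.095). These lists were chosen with earlier results of the data known, so their counts are descriptions.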

How the data were processed

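Groups and replicate numbers came from the sample titles, with 3 shControl and 3 shDAXX arrays. The deposited log2 values are RMA signals, which the authors made from the array files with background correction, normalization between arrays and summary per transcript cluster. Affymetrix Expression Console is named in the submitters' processing notes, and its version is not given in the sources used. The log base was read from the values (1.88 to 19.52). The study describes batch correction for arrays of different times and medium with or without serum for its arrays, and the sources used here do not say whether these 6 arrays were corrected. RMA narrows differences of dim genes.

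Of 70523 rows 67528 were transcript clusters, of which 23781 had 1 symbol. For the 479 genes with several clusters the brightest was kept, leaving 22465 genes. Symbols were matched by gene ID to RefSeq (GRCh38.p14) for 21497 clusters and changed 0 symbols, and the table served for names, chromosomes and gene order. Neighbours are the 20 nearest tested protein-coding genes on each side that are not histone genes. limma 3.58.1 in R 4.3.3 (lmFit, eBayes, two-sided, no covariates) was fitted over all genes, with Benjamini-Hochberg adjustment and a threshold of 0.05. Tables were summarised in Python 3.11.15 with pandas 2.3.3. The fit was checked on simulated data. With 3 arrays a group, the number of arrays limits the precision, and 0 pairs of arrays were identical. An exact permutation test of a single value cannot go below 0.10 here and was not used.

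Members and lists were chosen with earlier results of these data known. By rule the text names DAXX, called members, H3.3 genes, variants that are no germ cell genes, the largest rise and fall of each type among replication-dependent genes, and up to 3 called genes per direction of each list, or the 2 smallest p-values. All other members, SLBP and NPAT were named after their values were seen, as were the printed promoters and the H1 box. Alternatives were a filter on dim genes, a fit over every cluster, averaging the clusters of a gene, array medians set equal, quantile normalization, replicate numbers as a block, trend and robust moderation, array weights, the methods' unpaired t-test, a minimum fold of 1.3 and leaving out each array.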

Additional observations from a re-analysis of the deposited data

How the results depend on the processing

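No alternative called a histone gene higher. Histone genes called lower numbered 1 as deposited and 5 among genes above the median signal and with trend and robust moderation. They were 3 with the replicate block, 2 after quantile normalization, and 0 over every cluster and by the methods' t-test. Replication-dependent genes gave 4, 4, 3, 2, 0 and 0, and variants 1 with the dim filter and with trend and robust moderation. The calls over all genes moved too. Of all genes, 1257 of 22465 were called lower as deposited, 1760 of 11232 with the dim filter and 1554 of 22465 with trend and robust moderation. The replicate block called 868 lower, quantile normalization 1222 and the t-test 811. With 1 array left out the counts were 0 to 4 for all histone genes and for replication-dependent genes, and 0 to 1 for variants, while 515 to 609 of all genes were higher and 722 to 857 lower, against 967 and 1257. H2BC17 was called in 8 of the 10 settings with all arrays, losing the call over every cluster (adjusted p 0.081) and by the t-test (0.11). Over every cluster 308 genes were called higher and 494 lower. The cause of these shifts was not tested, beyond the larger or smaller number of features adjusted over. The median of the variants was -0.17 under the dim filter, which kept 5 of them. It ran from -0.09 to 0.02, and that of replication-dependent genes from -0.34 to -0.12, with 1 array left out.

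The replicate numbers did not pair the arrays. Same-numbered arrays deviated with correlations of -0.249, 0.298 and 0.056, and not every array correlated best with its own number. As a block, they gave 606 genes higher and 868 lower, and H1-4, H2BC11 and H2BC17 were called.

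Some fold changes turned sign, nearly all of them near 0. Equal array medians turned H1-5 (0.01), H2AC13 (0.02) and MACROH2A2 (0.02), and quantile normalization turned H2AC13 (0.03), H2AC16 (-0.01) and H4C3, which was at -0.23 as deposited (0.02). Leaving out 1 array also changed signs, and over the 6 such fits the fold change of H1-3 ran from -0.01 to 0.24, of H1-5 from -0.11 to 0.05, of H2AC1 from -0.08 to 0.29, of H2AC13 from -0.17 to 0.11, of H2AC14 from -0.12 to 0.02, of H2AC16 from -0.08 to 0.05, of H2AC6 from -0.05 to 0.08, of H2AP from -0.20 to 0.04, of H2AZ2 from -0.01 to 0.05, of H2BC13 from -0.06 to 0.24, of H2BC3 from -0.33 to 0.08, of H3-5 from -0.31 to 0.05, of MACROH2A2 from -0.08 to 0.06 and of SLBP from -0.01 to 0.12. None of these was called.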
